A study of Mus musculus with 6 samples.

Results

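The genes described here were 35 markers of the non-parenchymal cells of the liver, that is, of the cells other than hepatocytes. They were chosen by gene symbol from a list of known markers. The rule used no measured value, but the list was drawn up with earlier results of these data known. The list held 11 markers of Kupffer cells, 6 of sinusoidal endothelial cells, 9 of stellate cells, 5 of cholangiocytes and 4 of lymphocytes. All 35 were found among the 45777 genes of the deposited table, and 34 of them were among the 18636 genes tested, *Krt7* being left out for its zero counts. RNA was sequenced from whole liver of 3 wild-type (WT) mice and 3 mice with a hepatocyte deletion of p21-activated kinase 4 (*Pak4* LKO), with 1 library per mouse. All mice were males on the C57BL/6 background, 8 weeks old, and had been fasted for 24 h. Both genotypes carried the floxed *Pak4* alleles, and the LKO mice also carried Cre under the albumin promoter, which is active mainly in hepatocytes. The presence of Cre and the loss of *Pak4* therefore cannot be told apart. The comparison addressed here was whether marker RNA of the other liver cells differed between the livers of the 2 genotypes.

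Liver lobules are lined by sinusoids, whose fenestrated endothelium clears material from blood through scavenger and lectin receptors such as the stabilins. Kupffer cells, the resident macrophages of the liver, sit within these sinusoids and take up complement-coated particles, haemoglobin complexes and dying cells. Stellate cells lie between endothelium and hepatocytes, store vitamin A as retinyl ester and produce extracellular matrix. Cholangiocytes line the bile ducts, and lymphocytes of blood and tissue contribute a small part of the RNA of a whole liver.

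The libraries of the 2 genotypes differed in make-up, and this bears on each fold change. Total counts were 45934632 to 55205564 per WT mouse and 53936281 to 59576437 per LKO mouse. Of all counts, protein-coding genes took 88.5% to 89.6% in WT and 77.3% to 80.7% in LKO livers, whereas 7SL, the RNA that scaffolds the signal recognition particle, took 4.55% to 5.24% and 11.2% to 15.8%. The part of these differences in the results was not tested. Values are therefore given on 3 scales. These are CPM (reads of a gene relative to the library) scaled by the trimmed mean of M values (TMM), which centres most genes on no change, CPM relative to the total counts, and the deposited TPM (transcripts relative to all transcripts), which are per length. The median log2 fold change (LKO over WT) of all genes was −0.04 under TMM, −0.90 under total counts and −0.79 on the log2(TPM + 1) scale. Values below are TMM-scaled CPM unless another scale is named, and adjusted p-values are from edgeR's quasi-likelihood test over all genes tested. *Pak4* had counts of 268, 210 and 271 in the WT libraries against 85, 52 and 149 in the LKO libraries, which were 3.63 ± 0.445 and 2.21 ± 0.900 CPM (SD, n = 3). Its log2 fold change was −0.71 (SE 0.31, adjusted p = 0.10) under TMM and −1.54 (adjusted p = 0.0056) under total counts, and the 2-sided exact permutation test gave p = 0.2, where 0.1 is the smallest p that 3 against 3 mice allow.

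Under TMM, 11 of the 34 members tested were higher in LKO livers and 3 were lower, at adjusted p under 0.05. Together these are 41.2% of the members, against 40.1% of all genes tested. The members' calls were less evenly split than those of all genes, with 32.4% of members higher against 19.6% of all genes, and 8.82% lower against 20.5%. Their median log2 fold change was 0.49, and 25 of the 34 had a positive value. In 15 of the 34 every LKO mouse lay above every WT mouse, and in 4 every LKO mouse lay below, against 26.1% and 27.9% of all genes. The higher members were markers of Kupffer cells (4), endothelium (3) and stellate cells (4), and the lower members were *Col3a1*, *Spp1* and *Nkg7*. In whole liver, fewer cells of a type and less RNA per cell cannot be told apart.

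**Figure D1:**
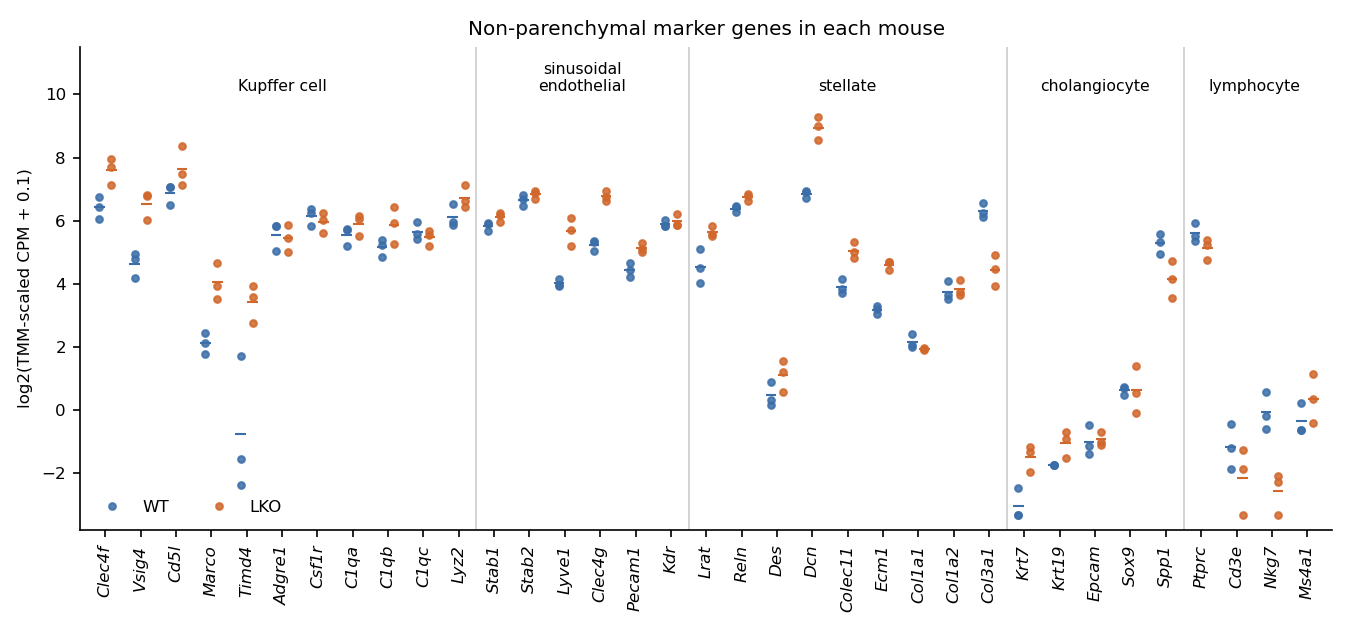
Level of each of the 35 marker genes in each mouse, as log2(TMM-scaled CPM + 0.1) on the vertical axis, with genes in order of cell type; each point is 1 mouse (3 WT, 3 LKO) and each short line the mean of a genotype. On this scale the LKO points of *Vsig4*, *Marco*, *Lyve1*, *Clec4g* and *Dcn* lie above the WT points, and those of *Col3a1*, *Spp1* and *Nkg7* lie below.

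Kupffer cell markers were higher in LKO livers in 4 of 11 cases under TMM, and none of the 11 was lower. The shares of all genes tested were 19.6% higher and 20.5% lower. *Clec4f*, a C-type lectin found in mice on Kupffer cells (chr6:83644542-83656116), measured 107, 86.9 and 66.7 CPM in WT mice and 140, 248 and 207 CPM in LKO mice. The groups did not overlap, and the log2 fold change was 1.19 (SE 0.25, adjusted p = 0.0069, edgeR). *Vsig4*, the complement receptor CRIg (chrX:96247201-96293438), measured 30.5, 27.3 and 18.0 CPM in WT mice and 65.3, 113 and 109 CPM in LKO mice. Here too the groups lay apart, and the fold change was 1.92 on the log2 scale (SE 0.27, adjusted p = 0.0011, edgeR). *Marco*, a scavenger receptor for bacteria and particles (chr1:120474538-120505024), measured 5.30, 4.28 and 3.36 CPM in WT mice and 11.4, 25.3 and 15.3 CPM in LKO mice. Its means were 4.31 ± 0.971 and 17.3 ± 7.20 CPM (SD, n = 3), a log2 fold change of 2.00 (SE 0.31, adjusted p = 0.0017, edgeR).

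*Timd4*, the phosphatidylserine receptor of long-lived resident macrophages (chr11:46810786-46844333), had counts of 18, 6 and 209 in the WT livers against 293, 531 and 544 in the LKO livers. WT replicate 3 stood far above the other WT mice, yet the groups did not overlap, and the log2 fold change was 3.27 (SE 1.01, adjusted p = 0.032, edgeR). Leaving out 1 mouse at a time moved it between 2.71 and 6.01 and took the adjusted p to as much as 0.094, with the call lost without WT replicate 1 or 2 or LKO replicate 2 or 3.

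The 250-base RefSeq promoter windows of these 4 genes are shown because the genes rose under TMM, with that of *Col3a1* beside them because it fell. Each window ends at the base before the gene as placed in the text, except that of *Timd4*, which reaches slightly into it. They are read 5′ to 3′ on the strand of the gene in GRCm38.p6. Capitals mark 2 motifs that were searched on both strands. GAGGAA is the core of sites for the macrophage factor PU.1. TATAAA is the sequence that the general factor TBP binds in many promoters.
Clec4f (chr6:83656117-83656366, minus strand): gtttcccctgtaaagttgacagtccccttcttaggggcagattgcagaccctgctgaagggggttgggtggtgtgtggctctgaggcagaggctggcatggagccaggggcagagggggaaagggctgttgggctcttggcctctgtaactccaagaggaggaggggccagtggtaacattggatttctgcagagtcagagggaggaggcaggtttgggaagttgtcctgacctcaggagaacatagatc
Vsig4 (chrX:96293439-96293688, minus strand): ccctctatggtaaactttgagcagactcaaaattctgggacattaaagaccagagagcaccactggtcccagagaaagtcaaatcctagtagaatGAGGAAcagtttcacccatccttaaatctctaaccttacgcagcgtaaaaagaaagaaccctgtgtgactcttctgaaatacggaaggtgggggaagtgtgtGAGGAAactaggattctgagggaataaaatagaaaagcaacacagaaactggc
Marco (chr1:120505025-120505274, minus strand): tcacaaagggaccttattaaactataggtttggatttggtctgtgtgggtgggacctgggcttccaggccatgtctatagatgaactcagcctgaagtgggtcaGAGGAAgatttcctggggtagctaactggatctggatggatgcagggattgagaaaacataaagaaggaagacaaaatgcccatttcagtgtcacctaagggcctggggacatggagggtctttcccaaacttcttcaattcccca
Timd4 (chr11:46810549-46810798, plus strand): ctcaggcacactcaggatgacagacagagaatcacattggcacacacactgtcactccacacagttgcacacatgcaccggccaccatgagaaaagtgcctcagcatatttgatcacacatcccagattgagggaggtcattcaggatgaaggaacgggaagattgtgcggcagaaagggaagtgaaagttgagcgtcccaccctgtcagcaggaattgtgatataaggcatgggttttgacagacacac
Col3a1 (chr1:45311288-45311537, plus strand): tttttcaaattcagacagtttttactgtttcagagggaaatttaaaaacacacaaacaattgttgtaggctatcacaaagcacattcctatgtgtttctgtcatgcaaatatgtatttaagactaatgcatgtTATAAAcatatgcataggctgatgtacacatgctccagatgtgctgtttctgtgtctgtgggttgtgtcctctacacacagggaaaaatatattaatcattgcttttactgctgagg
GAGGAA occurred 2 times in the *Vsig4* window and 1 time in that of *Marco*, and neither motif was found in those of *Clec4f* and *Timd4*. TATAAA occurred 1 time in the *Col3a1* window. Of the 27 RefSeq windows that matched 25 of the 35 members, 10 held GAGGAA and 5 held TATAAA, against 23.3% and 12.4% of 32851 windows of the same length. Apart from *Vsig4* and *Marco*, GAGGAA was in windows of genes not called higher. These were *Cd5l*, *C1qb*, *C1qc*, *Stab1*, *Ptprc* and *Cd3e*, which were not called under TMM, *Spp1*, which was lower, and *Krt7*, which was not tested.

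The other 7 Kupffer cell markers were not called. *Cd5l*, a secreted scavenger protein of macrophages, measured 118 ± 25.1 CPM in WT and 214 ± 99.8 CPM in LKO livers, with a log2 fold change of 0.86 (adjusted p = 0.063, edgeR). *Lyz2*, lysozyme of myeloid cells, which may share reads with the near-identical *Lyz1*, had 0.61 (adjusted p = 0.070, edgeR). *Adgre1*, which encodes the macrophage antigen F4/80, measured 56.3, 56.4 and 32.9 CPM in WT mice and 32.1, 57.7 and 43.9 CPM in LKO mice. These groups overlapped, with a log2 fold change of −0.12 (SE 0.27, adjusted p = 0.74, edgeR). *Csf1r*, the receptor for the growth factor of macrophages, had −0.18 (adjusted p = 0.52, edgeR). The 3 chains of complement C1q, which are assembled in 1 complex, had log2 fold changes of 0.37 for *C1qa*, 0.78 for *C1qb* and −0.18 for *C1qc*, with adjusted p of 0.20, 0.058 and 0.50 (edgeR).

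On the total-count scale *Vsig4* (log2 fold change 1.02, adjusted p = 0.0089, edgeR) and *Marco* (1.09, adjusted p = 0.0091) were still called higher, *Clec4f* (0.29, adjusted p = 0.31) and *Timd4* (2.42, adjusted p = 0.055) were not, and *Adgre1* and *Csf1r* were called lower, at −1.03 and −1.08. Against the shift of −0.90 in all genes, 8 of the 11 Kupffer cell markers lay above. Among 15 further Kupffer cell markers, 5 were higher and 2 were lower under TMM, with a median of 0.17, and under total counts 2 were higher and 8 lower. The shares over all genes tested were 19.6% higher and 20.5% lower under TMM, and 6.26% and 51.4% under total counts. *Cd163*, the receptor for haptoglobin-haemoglobin complexes, measured 1.09, 2.02 and 0.832 CPM in WT mice and 24.3, 30.1 and 34.8 CPM in LKO mice. These do not overlap, and the log2 fold change was 4.50 (SE 0.34, adjusted p = 0.00021, edgeR) under TMM and 3.62 under total counts, and its TPM did not overlap. *Fcna*, a lectin of the complement pathway, rose from 14.7 ± 0.153 to 60.7 ± 16.0 CPM (SD, n = 3), a log2 fold change of 2.05 under TMM and 1.15 under total counts. The 2 further markers called lower, named here after their values were seen, were lower on all 3 scales. *Cd68*, a lysosomal glycoprotein of macrophages, fell from 5.23 ± 0.776 to 2.14 ± 0.131 CPM, a log2 fold change of −1.29 (SE 0.21, adjusted p = 0.0021, edgeR). *C6*, a component of the terminal complement pathway, fell from 286 ± 39.4 to 129 ± 55.7 CPM, a log2 fold change of −1.15 (SE 0.33, adjusted p = 0.023, edgeR).

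Sinusoidal endothelial markers were higher in 3 of 6 cases under TMM, and none of the 6 was lower, against 19.6% and 20.5% of all genes. Under total counts 2 of the 6 were higher and 3 were lower, against 6.26% and 51.4% of all genes. *Lyve1*, a receptor for hyaluronan (chr7:110850607-110862953), measured 15.2, 17.6 and 15.4 CPM in WT mice and 36.3, 67.8 and 52.4 CPM in LKO mice. The groups did not overlap, and the log2 fold change was 1.70 (SE 0.23, adjusted p = 0.00087, edgeR). *Clec4g*, the lectin LSECtin (chr8:3707066-3720695), measured 40.5, 40.4 and 32.7 CPM in WT mice and 108, 98.3 and 122 CPM in LKO mice. These lay apart, and the log2 fold change was 1.53 (SE 0.16, adjusted p = 0.00037, edgeR). Under total counts *Lyve1* (0.80, adjusted p = 0.0076) and *Clec4g* (0.67, adjusted p = 0.021) were still called higher. *Pecam1*, the adhesion molecule CD31 found on all endothelium, measured 21.8, 25.1 and 18.4 CPM in WT mice and 32.1, 34.1 and 39.5 CPM in LKO mice. These do not overlap, and the log2 fold change was 0.69 (SE 0.16, adjusted p = 0.011, edgeR) under TMM and −0.18 under total counts.

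The 2 stabilins, scavenger receptors of the same endothelium, and *Kdr*, the VEGF receptor, were not called. *Stab2* measured 103, 112 and 88.5 CPM in WT mice and 123, 103 and 117 CPM in LKO mice, which overlap, with a log2 fold change of 0.17 (SE 0.15, adjusted p = 0.40, edgeR). *Stab1* had 0.29 (adjusted p = 0.15) and *Kdr* had 0.09 (adjusted p = 0.66) in the same fit. Among 20 further endothelial markers, 17 were higher and none was lower under TMM, with a median of 0.83, and under total counts 4 were higher and 3 lower, with a median of −0.03. Of all genes tested, 19.6% were higher and 20.5% lower under TMM, and 6.26% and 51.4% under total counts. *Bmp2*, a ligand that endothelium sends to hepatocytes in the control of iron, rose from 7.57 ± 1.33 to 33.1 ± 9.25 CPM, a log2 fold change of 2.13 (adjusted p = 0.00044, edgeR). *Vwf*, von Willebrand factor, more typical of larger vessels, rose from 3.46 ± 0.781 to 13.4 ± 2.06 CPM, a log2 fold change of 1.96 (adjusted p = 0.00050, edgeR). Of members and further markers together, 20 of 26 endothelial genes (76.9%) were higher, which is the highest share among the 5 cell types under TMM, and this share was not tested against the background of 19.6%.

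Stellate cell markers moved apart, with 4 of 9 higher and 1 lower under TMM, against 19.6% and 20.5% of all genes tested. *Dcn*, the small matrix proteoglycan decorin (chr10:97479500-97518163), measured 121, 122 and 105 CPM in WT mice and 378, 625 and 512 CPM in LKO mice. All LKO mice lay well above the WT mice, and the log2 fold change was 2.12 (SE 0.22, adjusted p = 0.00037, edgeR), and 1.23 (adjusted p = 0.00067) under total counts. *Col3a1*, the chain of fibrillar collagen III (chr1:45311538-45349706), measured 76.4, 95.0 and 69.8 CPM in WT mice and 30.1, 21.8 and 15.1 CPM in LKO mice. Here all LKO mice lay below the WT mice, and the log2 fold change was −1.85 (SE 0.26, adjusted p = 0.0010, edgeR), and −2.71 (adjusted p = 0.00022) under total counts. The collagen I genes were not called, with −0.24 (adjusted p = 0.39) for *Col1a1* and 0.09 (adjusted p = 0.76) for *Col1a2*.

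The retinoid gene *Lrat*, which encodes the enzyme that esterifies retinol for storage (chr3:82892582-82903974), measured 34.4, 16.2 and 22.4 CPM in WT mice and 47.2, 56.7 and 45.3 CPM in LKO mice. The groups did not overlap, with a log2 fold change of 1.03 (SE 0.26, adjusted p = 0.014, edgeR), and the call was lost without WT replicate 3 (0.95, adjusted p = 0.064) or LKO replicate 2 (0.93, adjusted p = 0.054). *Colec11*, a collectin of the complement lectin pathway, measured 17.8, 14.1 and 13.1 CPM in WT mice and 32.1, 39.7 and 28.2 CPM in LKO mice. *Ecm1*, an extracellular matrix protein, measured 8.06, 9.20 and 9.75 CPM in WT mice and 21.6, 25.6 and 25.9 CPM in LKO mice. Neither gene overlapped between the genotypes, with log2 fold changes of 1.15 (SE 0.19, adjusted p = 0.0019) and 1.43 (SE 0.15, adjusted p = 0.00042, edgeR). Under total counts *Ecm1* was still called (0.57, adjusted p = 0.022), whereas *Colec11* (0.27) and *Lrat* (0.16) were not. *Reln*, the secreted glycoprotein reelin, had 0.36 (adjusted p = 0.067), and *Des*, the intermediate filament desmin, had 0.70 (adjusted p = 0.15). Of 18 further stellate markers tested, 8 were higher and none was lower under TMM, and 3 were higher and 6 lower under total counts. *Timp1* and *Gfap*, named after their values were seen, were not tested because of their zero counts. *Timp1* had counts of 32, 38 and 38 in the WT livers against 0, 0 and 5 in the LKO livers, all below WT. *Gfap* had 12, 7 and 12 against 0, 0 and 10. Over all genes tested these shares were 19.6% and 20.5% under TMM, and 6.26% and 51.4% under total counts. *Hand2*, a transcription factor of quiescent stellate cells, rose from 0.518 ± 0.110 to 2.83 ± 0.239 CPM, and *Rgs5*, a regulator of G protein signalling in pericytes, rose from 30.6 ± 4.30 to 135 ± 28.8 CPM, with log2 fold changes of 2.44 (adjusted p = 0.00051) and 2.14 (adjusted p = 0.00031, edgeR).

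Cholangiocyte markers were few in reads, apart from *Spp1*, osteopontin, a secreted phosphoprotein of bile duct cells and macrophages (chr5:104435111-104441053). *Spp1* measured 48.1, 40.2 and 30.5 CPM in WT mice and 17.8, 26.5 and 11.7 CPM in LKO mice. All LKO mice lay below the WT mice, with a log2 fold change of −1.09 (SE 0.30, adjusted p = 0.019, edgeR) under TMM and −2.00 (adjusted p = 0.00051) under total counts. The TMM call was lost without WT replicate 1 (−0.92, adjusted p = 0.062) or LKO replicate 1 (−1.06, adjusted p = 0.051). *Krt7* and *Krt19*, keratins of the biliary epithelium, were near the limit of detection. *Krt7* had counts of 6, 0 and 0 in the WT livers against 7, 12 and 14 in the LKO livers, and *Krt19* had 15, 13 and 13 against 11, 15 and 24. The fit gave 1.00 (SE 0.42, adjusted p = 0.092) for *Krt19*, 0.05 (SE 0.43, adjusted p = 0.94) for *Epcam*, an epithelial adhesion molecule, and 0.11 (SE 0.40, adjusted p = 0.85) for *Sox9*, a transcription factor of the biliary lineage. Of 6 further cholangiocyte markers tested, 1 was called under TMM, against 40.1% of all genes tested. This was *Bicc1*, an RNA-binding protein, at 1.06 (adjusted p = 0.019, edgeR) under TMM and 0.18 under total counts.

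Lymphocyte markers other than *Ptprc* were low in both genotypes. *Nkg7*, a granule protein of NK cells and cytotoxic T cells (chr7:43437138-43438246), had counts of 58, 91 and 37 in the WT livers against 6, 0 and 5 in the LKO livers. The LKO counts all lay below the WT counts, and the log2 fold change was −3.37 (SE 0.72, adjusted p = 0.0066, edgeR). *Ptprc*, the leukocyte antigen CD45 carried by Kupffer cells too, measured 45.5, 61.0 and 41.1 CPM in WT mice and 27.0, 42.2 and 37.2 CPM in LKO mice. These overlapped, with a log2 fold change of −0.47 (SE 0.21, adjusted p = 0.11) under TMM and −1.37 (adjusted p = 0.00093) under total counts. *Cd3e*, a chain of the T cell receptor complex, had counts of 13, 42 and 22 against 0, 11 and 8, and *Ms4a1*, the B cell antigen CD20, had 79, 36 and 36 against 92, 23 and 54. Neither was called, at −1.26 (SE 0.91, adjusted p = 0.30) and 0.86 (SE 0.48, adjusted p = 0.19). Of 16 further lymphocyte markers tested, 1 was higher and 3 were lower under TMM, against 19.6% and 20.5% of all genes tested. *Cd3d* and *Prf1*, named after their values were seen, were not tested because of zero counts in LKO livers. *Cd3d* had counts of 49, 34 and 12 in the WT livers against 0, 0 and 0 in the LKO livers. *Prf1* had 17, 31 and 19 against 0, 0 and 3, so in both every LKO mouse lay below every WT mouse. *Cd4*, the co-receptor of helper T cells, which is also found on some myeloid cells, fell from 2.05 ± 0.508 to 0.315 ± 0.0957 CPM, a log2 fold change of −2.70 (adjusted p = 0.0010). *Il2rb*, a chain of the interleukin 2 receptor, fell from 2.26 ± 0.362 to 1.16 ± 0.400 CPM, a log2 fold change of −0.96 (adjusted p = 0.042). *Cd8a*, the other gene called lower, is named after its values were seen. It fell from 1.19 ± 0.670 to 0.181 ± 0.0425 CPM, a log2 fold change of −2.69 (adjusted p = 0.0040, edgeR). The 1 called higher, *Klrb1c*, and *Ncr1*, both markers of NK cells, are named here after their values were seen. *Klrb1c* rose from 0.267 ± 0.145 to 1.38 ± 0.397 CPM, without overlap. Its log2 fold change was 2.37 (adjusted p = 0.0045, edgeR) under TMM and 1.52 (adjusted p = 0.031, edgeR) under total counts. *Ncr1* had 0.57 (SE 0.59, adjusted p = 0.47, edgeR), with counts of 6, 24 and 12 against 14, 14 and 10, too few to tell its direction. *Gzma* (0.02) and *Gzmb* (−0.44), also named after their values were seen, were not called. *Nkg7*, shared by NK cells and cytotoxic T cells, was thus called lower and *Klrb1c* higher.

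**Figure D2:**
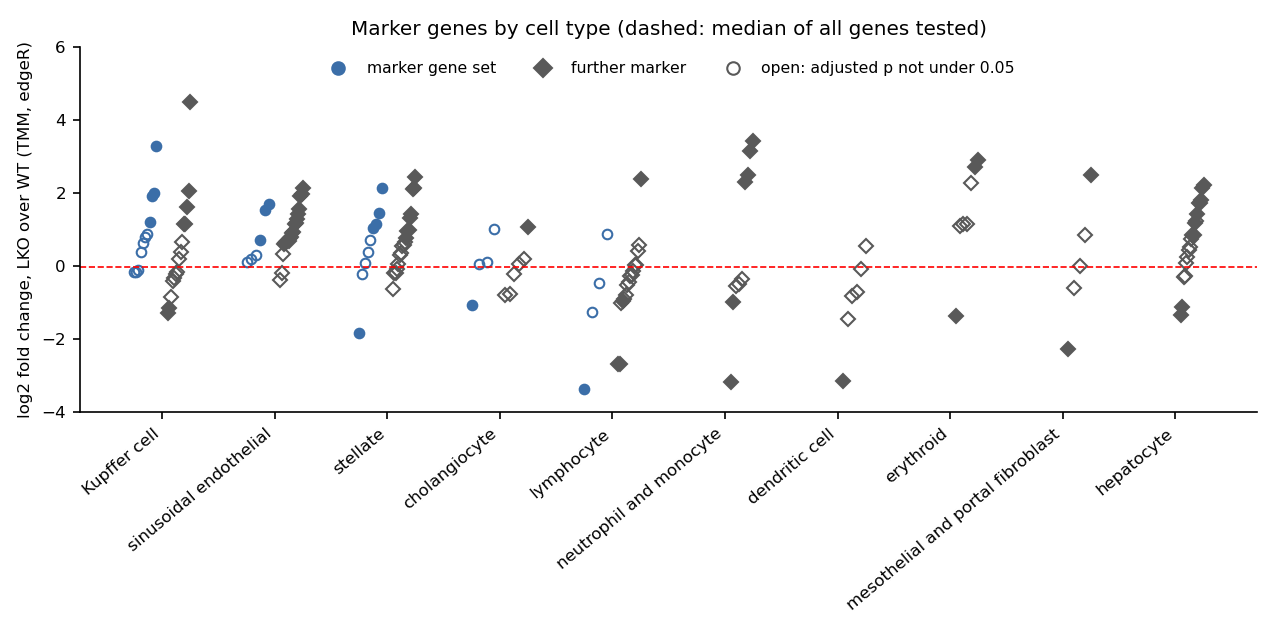
Log2 fold change (LKO over WT, TMM, edgeR) of each marker gene tested, by cell type, with open symbols for genes whose adjusted p was not under 0.05 and a dashed line at the median of all genes (−0.04). On this scale 17 of 20 further endothelial markers and 8 of 18 further stellate markers were higher, and lymphocyte members had a median of −0.87.

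Set beside the members, markers of hepatocytes themselves were higher in 8 of 19 cases and lower in 2 under TMM, with a median of 0.83, and under total counts 5 were higher and 6 lower, with a median of −0.03. All genes tested were higher in 19.6% and lower in 20.5% of cases under TMM, and in 6.26% and 51.4% under total counts. *Arg1*, the arginase of the urea cycle, rose from 875 ± 130 to 4046 ± 764 CPM under TMM (SD, n = 3), a log2 fold change of 2.21 (adjusted p = 0.00049, edgeR). *Fgb*, the beta chain of fibrinogen, had 2.14 (adjusted p = 0.0029, edgeR), and both were also called higher under total counts. *Alb*, albumin, had a log2 fold change of 1.72 (adjusted p = 0.0079) and *Apoa1*, apolipoprotein A-I, had 1.81 (adjusted p = 0.0012, edgeR). Each lay within the range of the higher Kupffer cell and stellate members, and above that of the higher endothelial members (0.69 to 1.70). The summed TPM of the hepatocyte list was 0.842 times that of WT, with every LKO mouse below every WT mouse, although the same sum was 2.37 times that of WT under TMM and 1.30 times under total counts.

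The number of members called depended on the scale more than on any other choice that was tried. Under total counts 6 were higher and 13 were lower, with a median of −0.40, against 6.26% and 51.4% of all genes tested. On the log2(TPM + 1) scale, where limma was used, 2 were higher and 21 were lower, with a median of −0.76, against 2.43% and 71.5% of all genes in these directions and 73.9% in either. In TPM itself the groups lay apart in 1 member above and 22 members below, of the 34 tested, against 2.98% and 74.9% of all genes (77.9% in either direction). A correction for gene length left 13 members higher and 3 lower under TMM, against 39.1% of all genes called in either direction. *Dcn* was the 1 member called higher on all 3 scales, against 2.36% of all genes, and its TPM rose from 121 ± 16.5 in WT to 180 ± 30.8 in LKO livers (SD, n = 3). *Col3a1*, *Spp1* and *Nkg7* were called lower on all 3, against 20.4% of all genes. *Vsig4*, *Marco*, *Lyve1*, *Clec4g*, *Dcn* and *Ecm1* were called higher under both TMM and total counts. Measured against the median of all genes on the same scale, 25 of the 34 members lay above it under TMM, 25 under total counts, 19 on the log2(TPM + 1) scale and 23 on the log2(TPM + 0.1) scale.

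**Figure D3:**
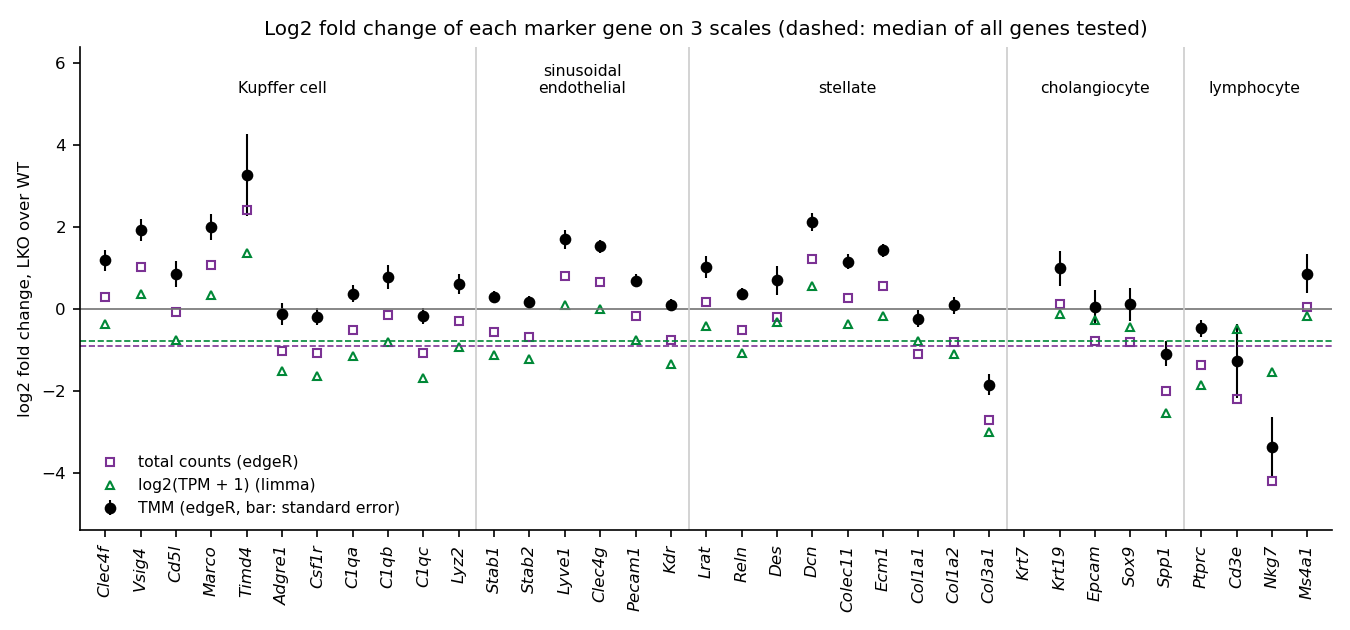
Log2 fold change (LKO over WT) of each member tested on 3 scales: TMM with its standard error, total counts, and log2(TPM + 1). Dashed lines mark the median of all genes under total counts (−0.90) and log2(TPM + 1) (−0.79), and a solid line marks 0. Values under total counts lie below those under TMM, and *Col3a1*, *Spp1* and *Nkg7* lie below 0 on all 3.

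Per length, the members spanned a wide range of TPM in WT livers. *Lyz2* (133 ± 42.4 TPM), *Dcn* (121 ± 16.5 TPM), *Cd5l* (115 ± 29.9 TPM), *C1qc* (94.2 ± 24.9 TPM) and *C1qa* (86.3 ± 20.5 TPM) headed the order, and neighbours among these 5 did not differ by more than their SD (n = 3). At the low end *Krt19* was at 0.281 ± 0.0192 TPM and *Krt7* at 0.0318 ± 0.0551 TPM. Kupffer cell genes held 6 of the 8 highest places, whereas all cholangiocyte genes other than *Spp1* and all lymphocyte genes other than *Ptprc* and *Nkg7* were under 1 TPM.

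Summed over the members of each cell type, Kupffer cell markers went from 560 ± 108 to 920 ± 280 CPM under TMM (SD, n = 3), a ratio of 1.64 with no overlap. The same sum had a ratio of 0.874 with overlap under total counts and 0.547 in TPM, with every LKO mouse below. The sum of the 15 further Kupffer cell markers was not higher under TMM, going from 826 ± 96.8 to 745 ± 184 CPM, a ratio of 0.902 with overlap. Its ratios were 0.484 under total counts and 0.357 in TPM, with every LKO mouse below on both. Endothelial markers went from 293 ± 27.1 to 444 ± 20.0 CPM, with ratios of 1.51 under TMM, 0.832 under total counts and 0.723 in TPM, of which the first alone had no overlap. Their 20 further markers had ratios of 1.97 with every LKO mouse above, 1.08 with overlap and 0.655 with every LKO mouse below. Stellate markers went from 347 ± 29.5 to 762 ± 136 CPM, a ratio of 2.20 under TMM, 1.19 under total counts and 1.05 in TPM, and *Dcn* made up 55.9% of the sum under TMM. The 20 further stellate markers had ratios of 1.78, 0.972 and 0.574, likewise above, overlapping and below. The cholangiocyte sum was lower on all 3 scales, with ratios of 0.512, 0.273 and 0.163 and every LKO mouse below, but *Spp1* made up 92.4% of it under TMM. Lymphocyte markers had ratios of 0.722, 0.389 and 0.222, with overlap under TMM alone, and *Ptprc* made up 96.0% under TMM. The further markers of cholangiocytes had ratios of 0.760, 0.420 and 0.326 and those of lymphocytes 0.812, 0.443 and 0.282, each with overlap under TMM alone. No test was made on these sums, and the direction for the Kupffer cell and endothelial members turned with the scale.

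**Figure D4:**
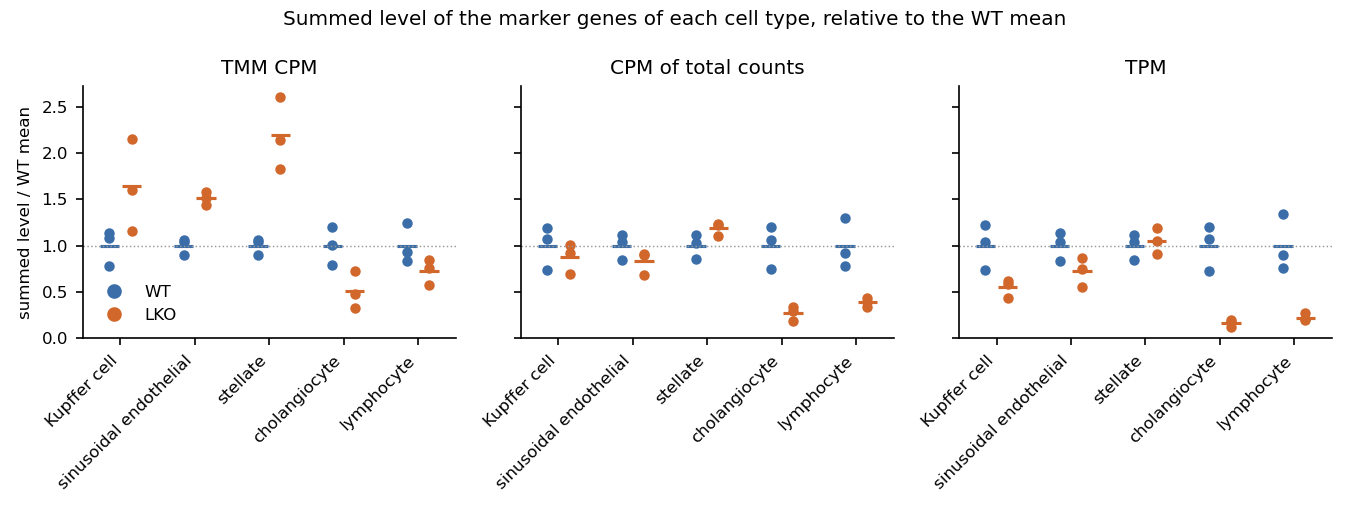
Summed level of the members of each cell type in each mouse, relative to the WT mean, on 3 scales (TMM-scaled CPM, CPM of total counts, and TPM), with 1 point per mouse. The LKO points of the Kupffer cell and endothelial members lie above the WT points under TMM and not on the other 2 scales, while those of cholangiocytes lie below on all 3. The cholangiocyte sum is mostly *Spp1* (92.4% under TMM), and *Krt19*, *Epcam* and *Sox9* were not called under TMM.

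A ratio between 2 genes in the same library does not depend on how that library is scaled. Pairs of the same cell type were therefore compared in TPM, chosen after the values were seen and given with no test. The *Vsig4* to *Adgre1* ratio was 1.18 ± 0.0813 in WT and 4.70 ± 0.655 in LKO livers, and that of *Clec4f* to *Adgre1* was 2.45 ± 0.347 and 5.80 ± 0.352 (SD, n = 3). The *Marco* to *Csf1r* ratio went from 0.121 ± 0.0184 to 0.538 ± 0.112. *Vsig4*, *Clec4f* and *Marco* were thus higher relative to these general macrophage markers in every LKO mouse than in any WT mouse. In endothelium, *Lyve1* to *Stab2* was 0.478 ± 0.0305 and 1.33 ± 0.457, and *Clec4g* to *Stab2* was 2.36 ± 0.138 and 5.82 ± 0.487. In stellate cells, *Dcn* to *Col3a1* was 4.30 ± 0.455 and 74.4 ± 33.2, a 17.3-fold change in the mean, and *Lrat* to *Reln* was 0.640 ± 0.239 and 1.01 ± 0.0682. Even the chains of C1q were unequal, with *C1qb* to *C1qc* at 0.689 ± 0.0557 and 1.30 ± 0.316. None of these ratios overlapped between the genotypes, but since the pairs were picked by their values, this says nothing about other pairs. Within each pair named, the 2 markers changed by unequal amounts in these mice, whichever scale is used.

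**Figure D5:**
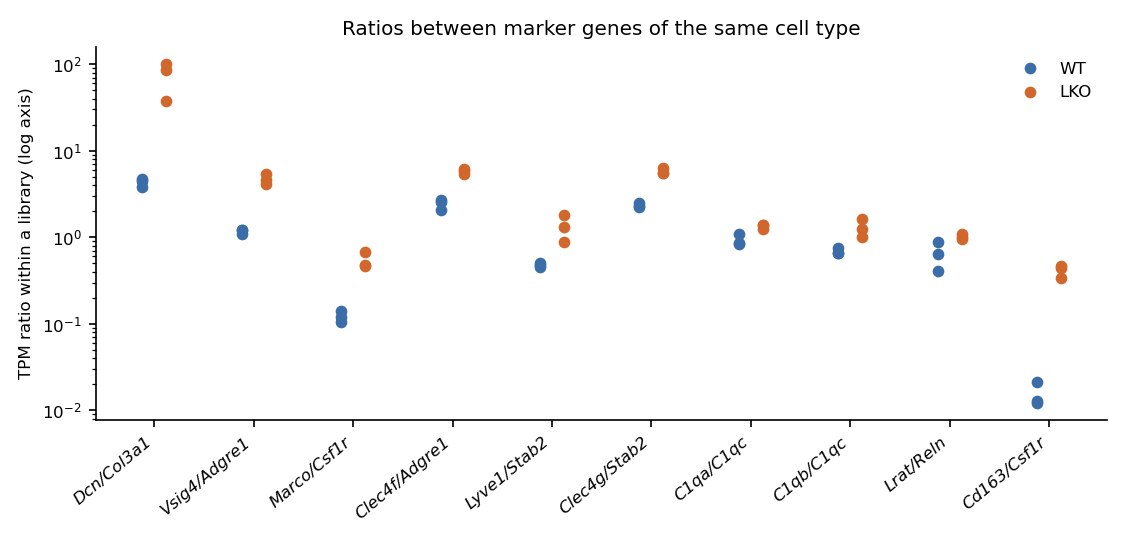
Ratios in TPM between marker genes of the same cell type, computed within each library and drawn on a log axis, with 1 point per mouse. For every pair shown the 3 LKO mice lie above the 3 WT mice, from 1.45-fold (*C1qa* to *C1qc*) to 27.2-fold (*Cd163* to *Csf1r*) in the mean. The pairs were chosen after the values were seen.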

How the data were processed

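Liver RNA of 3 WT and 3 *Pak4* LKO mice had been sequenced as 1 library for each mouse. The labels name an mRNA kit and the methods a total RNA kit. Per the submitters' processing notes the tools were HISAT2 2.1.0, Bowtie2 2.3.4.1 and StringTie 2.1.3b on mm10, and the use of strand in counting is not given in the sources used here. The authors deposited for each gene and mouse read counts that are not normalized, FPKM and TPM. FPKM served here only to derive the relative gene lengths of the length correction.

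The genotype in the labels set the groups. A gene was tested where at most 1 of the 6 mice had a zero count, which kept 18636 of 45777 genes. The read counts, after TMM scaling, went into edgeR (4.0.16, R 4.3.3) and its quasi-likelihood test with genotype as the only factor, 2-sided, with Benjamini-Hochberg adjustment over all genes. The common biological coefficient of variation was 0.254. TPM were tested as log2(TPM + 1) with limma 3.58.1, which understates the change of low genes. The scripts were tested on simulated data. Total counts are given with the results, and errors are SDs (n = 3) or standard errors of the fit. Further marker lists covered the same and other cells of the liver, and 21 alternative settings were tried, DESeq2 1.42.0 among them. Named further genes are the 2 of each list with the largest absolute log2 fold change among those called with a mean of at least 1 CPM, plus *Alb*, *Apoa1* and *Pak4*. A few others were named after their values were seen, as is said where they appear. Members and lists were chosen with earlier results of these data known. Coordinates and promoter windows are from RefSeq, GRCm38.p6. Some members, *Stab1* and *Reln* among them, overlap other annotated genes, and reads of such stretches cannot be told apart.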

Additional observations from a re-analysis of the deposited data

How the results depend on the processing

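The scale decided most changes. Under total counts, total counts of protein-coding genes, log2(TPM + 1) and log2(TPM + 0.1), in this order, members called higher numbered 6, 7, 2 and 2 (11 under TMM), members called lower 13, 10, 21 and 21 (3), further markers called higher 15, 21, 7 and 7 (39), further markers called lower 37, 32, 66 and 67 (10), all genes called higher 1167, 1013, 453 and 467 (3661) and all genes called lower 9575, 7393, 13322 and 13535 (3815). In the same order the log2 fold change of *Pak4* was −1.54, −1.37, −1.19 and −2.14, each past the threshold, which it missed under TMM (−0.71). The log2 difference of the summed members of Kupffer cells was 0.69 under TMM, −0.18 under total counts, −0.0035 under coding total counts and −0.86 in TPM. For endothelium these were 0.60, −0.27, −0.091 and −0.48. For stellate cells these were 1.12, 0.25, 0.43 and 0.074. For cholangiocytes these were −1.02, −1.89, −1.71 and −2.61. For lymphocytes these were −0.47, −1.34, −1.16 and −2.14. Under total counts the sign turned in 13 members, with log2 fold changes of −0.073 for *Cd5l*, −0.52 for *C1qa*, −0.14 for *C1qb*, −0.29 for *Lyz2*, −0.56 for *Stab1*, −0.68 for *Stab2*, −0.18 for *Pecam1*, −0.76 for *Kdr*, −0.51 for *Reln*, −0.21 for *Des*, −0.81 for *Col1a2*, −0.79 for *Epcam* and −0.80 for *Sox9*. Under coding total counts the sign turned in 11 members, with log2 fold changes of −0.35 for *C1qa*, −0.12 for *Lyz2*, −0.39 for *Stab1*, −0.51 for *Stab2*, −0.0022 for *Pecam1*, −0.58 for *Kdr*, −0.33 for *Reln*, −0.033 for *Des*, −0.63 for *Col1a2*, −0.61 for *Epcam* and −0.61 for *Sox9*. On the log2(TPM + 1) scale the sign turned in 20 members, with log2 fold changes of −0.36 for *Clec4f*, −0.75 for *Cd5l*, −1.16 for *C1qa*, −0.81 for *C1qb*, −0.92 for *Lyz2*, −1.12 for *Stab1*, −1.23 for *Stab2*, −0.0094 for *Clec4g*, −0.77 for *Pecam1*, −1.35 for *Kdr*, −0.40 for *Lrat*, −1.06 for *Reln*, −0.33 for *Des*, −0.37 for *Colec11*, −0.17 for *Ecm1*, −1.09 for *Col1a2*, −0.11 for *Krt19*, −0.28 for *Epcam*, −0.44 for *Sox9* and −0.17 for *Ms4a1*. On the log2(TPM + 0.1) scale the sign turned in 20 members, with log2 fold changes of −0.37 for *Clec4f*, −0.76 for *Cd5l*, −1.18 for *C1qa*, −0.83 for *C1qb*, −0.93 for *Lyz2*, −1.24 for *Stab1*, −1.30 for *Stab2*, −0.0098 for *Clec4g*, −0.84 for *Pecam1*, −1.45 for *Kdr*, −0.45 for *Lrat*, −1.17 for *Reln*, −0.73 for *Des*, −0.39 for *Colec11*, −0.19 for *Ecm1*, −1.41 for *Col1a2*, −0.44 for *Krt19*, −0.99 for *Epcam*, −1.23 for *Sox9* and −0.55 for *Ms4a1*. The TMM filter, size factors, exact test, DESeq2, length correction and removal of a filter turned no sign, and calls gained there were those of *Cd5l*, *C1qb*, *Lyz2*, *Reln*, *Stab1* or *Krt19*. Leaving out 1 mouse at a time gave 9 to 13 members higher, 2 to 3 lower, 32 to 40 further markers higher, 6 to 10 lower (6 without WT replicate 2), 2796 to 3517 and 2855 to 3792 calls over all genes, and −1.08 to −0.49 for *Pak4*, which passed without LKO replicate 3 (adjusted p = 0.015, edgeR). The summed differences then spanned 0.47 to 0.92 (Kupffer cells), 0.52 to 0.65 (endothelium), 0.99 to 1.25 (stellate cells), −1.31 to −0.74 (cholangiocytes), −0.59 to −0.30 (lymphocytes). Signs turned then in *Adgre1* (−0.35 to 0.065), *Kdr* (−0.030 to 0.17), *Col1a2* (−0.071 to 0.24), *Epcam* (−0.17 to 0.44), *Sox9* (−0.40 to 0.42), none of them called. Same-numbered WT and LKO mice did not deviate together (correlations of 0.037, −0.026 and −0.074). A replicate block called *Lyz2* in addition (0.61, adjusted p = 0.028, edgeR), turned *Sox9* to −0.0088, and gave 3129 genes higher and 3302 lower; with length correction it called *Cd5l* and *Reln*. With 3 mice a group, markers with few reads (*Krt7*, *Krt19*, *Epcam*, *Cd3e*, *Ms4a1* and the called *Nkg7*) allow no more than their counts. The cause of the shift between scales was not tested.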

Other observations

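Markers of other cells that a liver sample can hold were mixed in direction. Of 9 neutrophil and monocyte markers tested, 4 were higher and 2 were lower under TMM. For this and each list below, the shares over all genes tested were 19.6% higher and 20.5% lower under TMM. *S100a8*, a calcium-binding protein of neutrophils, measured 0.402, 1.97 and 2.04 CPM in WT mice and 4.73, 10.8 and 9.19 CPM in LKO mice, with no overlap and a log2 fold change of 2.49 (adjusted p = 0.0089, edgeR). *Chil3*, a chitinase-like protein of myeloid cells, was at 0, 0.397 and 0.499 CPM in WT mice and at 1.45, 2.72 and 5.28 CPM in LKO mice, with no overlap and a log2 fold change of 3.41 (adjusted p = 0.018, edgeR). Both were also called higher under total counts, at 1.59 and 2.55. The 2 called lower, named here after their values were seen, were also called lower under total counts. *Csf3r* fell from 3.37 ± 1.10 to 1.69 ± 0.409 CPM (SD, n = 3), a log2 fold change of −0.99 (adjusted p = 0.035, edgeR). *Cx3cr1*, at under 1 CPM in every mouse, had −3.18 (adjusted p = 0.013, edgeR). Of the 9 genes, 5 had a negative value, and the median of the list was −0.35. Of 6 dendritic cell markers, 1 was called, *Itgax*, the integrin CD11c, which fell from 4.71 ± 1.83 to 0.524 ± 0.139 CPM (SD, n = 3), a log2 fold change of −3.17 (adjusted p = 0.00061, edgeR) under TMM and −4.06 under total counts.

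Of 7 erythroid markers, 2 were higher and 1 was lower under TMM. *Hbb-bs*, adult beta globin, measured 147, 76.8 and 137 CPM in WT mice and 563, 1094 and 1035 CPM in LKO mice, with no overlap and a log2 fold change of 2.90 (adjusted p = 0.00057, edgeR). *Hbb-bt*, whose reads may be shared with the near-identical *Hbb-bs*, had 2.71 (adjusted p = 0.00063, edgeR). The summed erythroid markers were 4.80 times the WT level under TMM, 2.62 times under total counts and 1.87 times in TPM, with every LKO mouse above every WT mouse on each, and *Hbb-bs* made up 62.7% of the TMM sum. None of the other 5 genes of the list was called higher under TMM, and those given here were named after their values were seen. The alpha globin genes overlapped between the genotypes and were not called, with *Hba-a1* at 33.2 ± 10.8 and 70.1 ± 47.1 CPM and *Hba-a2* at 25.2 ± 10.9 and 56.0 ± 36.3 CPM (SD, n = 3). *Alas2*, the first enzyme of haem synthesis in erythroid cells, fell from 55.2 ± 9.51 to 21.4 ± 2.23 CPM, a log2 fold change of −1.37 (adjusted p = 0.00065, edgeR) under TMM and −2.22 under total counts. The part of blood left in the tissue was not tested. Of 5 markers of mesothelium and portal fibroblasts, 1 was higher and 1 lower, and *Gpm6a*, a membrane glycoprotein of mesothelium, rose from 0.494 ± 0.0834 to 2.78 ± 0.965 CPM, a log2 fold change of 2.49 (adjusted p = 0.00098, edgeR).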
